A study of Homo sapiens with 6 samples.

Results

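The BCL2 family genes of LNCaP prostate cancer cells were compared between the parental line and LNCaP-enzaR, its enzalutamide-resistant derivative. The 10 genes were taken by symbol from a table of 35554 genes: the anti-apoptotic BCL2, BCL2L1 and MCL1, the effectors BAX and BAK1, and the BH3-only genes BCL2L11, BID, PMAIP1, BMF and BIK. LNCaP is an androgen-sensitive human line that came from a prostate cancer metastasis, and enzalutamide is a drug that blocks androgen receptor signalling. To obtain LNCaP-enzaR, parental cells were exposed to enzalutamide without a break. The paper states that the resistant line was then kept on enzalutamide at a lower dose. The labels describe 3 biological replicates of each line, grown in separate flasks. They leave unstated whether the harvested resistant cultures still contained enzalutamide. Each condition is 1 cell line with 1 culture history, so the spread between libraries does not cover what another resistant derivative would show.

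BCL2 family proteins decide whether the outer mitochondrial membrane stays intact. The anti-apoptotic members hold back the effectors BAX and BAK, which otherwise form pores and release cytochrome c, and the BH3-only proteins respond to stress by occupying the anti-apoptotic members or by activating the effectors directly. In prostate cancer the family is known for high BCL2 in castration-resistant tumours. Transcript levels are only one layer of this control, since MCL1, NOXA (the product of PMAIP1) and BIM (the product of BCL2L11) are also regulated through protein turnover.

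The libraries held 77759122 to 98616465 counts, and each of the 10 genes had between 455 and 24535 counts in each library, with the lowest counts for BIK and the highest for MCL1. LNCaP cells were recognised by their luminal markers: KRT8, KRT18, EPCAM, FOLH1, KLK2, TMPRSS2 and HOXB13 were expressed in both lines. The basal markers KRT5 and TP63 averaged under 0.01 CPM (counts per 1000000 of the TMM-scaled library) in both lines, KRT14 stood at 1.34 and 0.592 CPM, and no leukocyte marker of 5 passed the filter on low counts. Among the luminal markers, KLK2 (379 and 94.9 CPM in parental and LNCaP-enzaR), HOXB13 (539 and 302) and FOLH1 (894 and 576) were lower in LNCaP-enzaR. KRT8 (397 and 886 CPM), KRT18, EPCAM and TMPRSS2 were higher. Of the stromal markers, COL1A1 stood at 13.4 CPM in parental cells, above BCL2 at 8.44 CPM, and at 4.29 CPM in LNCaP-enzaR. LUM at 0.425 and 1.44 CPM and PDGFRB at 0.641 and 1.73 CPM were low. The part of stromal markers in the results was not tested. Mitochondrial genes took 6.72% to 7.06% of counts in parental libraries and 14.8% to 15.5% in LNCaP-enzaR. The calls of all 10 genes were the same when mitochondrial genes were left out of the fit.

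The RefSeq promoter table (GRCh38.p14) held 14 start sites for 8 of the 10 genes. MCL1 and BIK had no entry. The upstream sequences of BCL2L11, PMAIP1 and BMF are printed because these are the 3 BH3-only genes called lower in LNCaP-enzaR by the rule given below. Each is written 5′ to 3′ on the strand of the gene and holds no base of an exon in GENCODE v44. The BCL2L11 sequence is the 250 bases of chr2:111120664-111120913 (plus strand), which lies inside the annotated gene between exons of longer transcripts, the PMAIP1 sequence is the 250 bases of chr18:59899746-59899995 (plus strand), and the BMF sequence is the 237 bases of chr15:40108893-40109129 (minus strand), before the upstream one of its 2 listed starts. Capitals mark matches, on either strand, to the FOXO core TGTTTAC or to the Sp1 GC box GGGCGG.
BCL2L11: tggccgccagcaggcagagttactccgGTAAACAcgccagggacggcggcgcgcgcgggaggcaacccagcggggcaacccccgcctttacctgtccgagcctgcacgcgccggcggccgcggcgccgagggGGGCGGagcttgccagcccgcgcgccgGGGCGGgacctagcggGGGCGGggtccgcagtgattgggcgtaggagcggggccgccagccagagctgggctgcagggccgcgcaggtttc
PMAIP1: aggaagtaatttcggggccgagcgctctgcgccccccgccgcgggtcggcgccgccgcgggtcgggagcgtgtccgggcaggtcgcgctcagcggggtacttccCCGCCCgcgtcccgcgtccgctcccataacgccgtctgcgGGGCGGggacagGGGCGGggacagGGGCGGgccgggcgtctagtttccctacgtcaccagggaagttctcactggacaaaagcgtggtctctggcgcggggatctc
BMF: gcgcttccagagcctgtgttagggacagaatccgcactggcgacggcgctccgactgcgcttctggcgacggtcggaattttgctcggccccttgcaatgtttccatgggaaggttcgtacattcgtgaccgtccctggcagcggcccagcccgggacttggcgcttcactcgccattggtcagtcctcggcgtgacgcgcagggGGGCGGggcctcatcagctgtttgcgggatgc

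The 3 sequences are rich in G and C, at 76.8% for BCL2L11, 72.8% for PMAIP1 and 64.6% for BMF. Within the 250 bases before each start, the GC box occurred 3 times for BCL2L11, 4 times for PMAIP1 and 1 time for BMF (upstream start), and 42.6% of the 35116 promoters in the table hold at least 1. It matched 9 of the 14 windows and 6 of the 8 genes with an entry, BAK1, BAX and BID included. The FOXO core occurred 1 time, 223 bases before the BCL2L11 start, against 2.98% of all promoters with a match. FOXO factors are known activators of BCL2L11. The cyclic AMP response element TGACGTCA (1.65% of promoters) and TGATGNAA, the composite element of ATF4 and CHOP (3.14% of promoters), matched none of the 14 windows, and TATAAA, found in 10.7% of promoters, matched only a BCL2L1 window. Such matches describe letters in a window and do not show that a factor binds there. No motif overlapped another in the printed sequences.

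The comparison asks whether transcripts of survival and death genes differ between the parental and the resistant line. BCL2 rose in LNCaP-enzaR, and BAX, BCL2L11, PMAIP1 and BMF fell. A gene was called at an adjusted p of at most 0.05 in edgeR's quasi-likelihood test, with Benjamini-Hochberg adjustment over the 19711 genes tested, together with a fold change of at least 1.5. By this rule 1 of the 10 genes was higher, 4 were lower and 5 were not called. All 10 passed the filter on low counts. Over all genes tested, 42.7% were called in either direction, 23.3% as higher and 19.5% as lower, so 5 calls among 10 genes is close to the background. With the adjusted p alone, 2 of the 10 genes were higher and 7 lower, against 66.3% of all genes in either direction, 33.5% higher and 32.8% lower. With a fold of at least 2, 0 were higher and 2 lower, against 28.2%, 16.4% and 11.8% of all genes. The median log2 fold change was -0.49 over the 10 genes and 0.01 over all genes tested. All 7 pro-apoptotic genes among the 10 were tested. Of these, 4 were called lower, none was called higher and 3 were not called, with a median log2 fold change of -0.71. In each of the 10 genes the libraries of the parental line and those of LNCaP-enzaR did not overlap in CPM, which was also true of 70.6% of all genes tested.

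**Figure D1:**
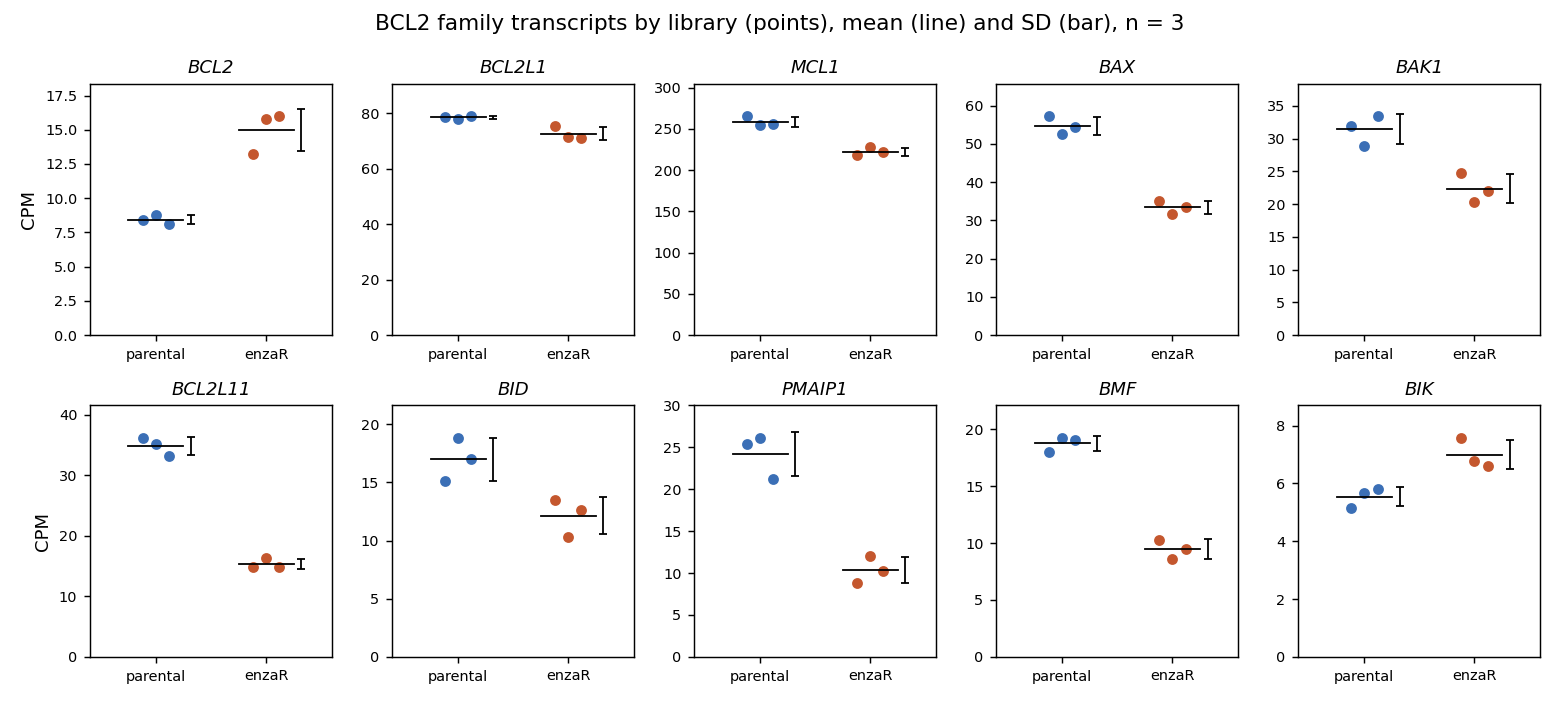
Expression of the 10 BCL2 family genes in CPM (linear axis from 0, scaled separately for each gene) in the 3 parental (blue) and 3 LNCaP-enzaR (orange) libraries. Points are libraries, lines are means and bars are SD; BCL2 and BIK lie higher in LNCaP-enzaR and the other 8 genes lower, with no overlap between the lines.

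Of the anti-apoptotic genes, BCL2 (ENSG00000171791.14, chr18:63123346-63320128, minus strand), the founding member of the family, was measured at 8.43, 8.75 and 8.13 CPM in parental replicates 1 to 3 and at 13.2, 15.8 and 16.0 CPM in LNCaP-enzaR replicates 1 to 3. All 3 resistant libraries lay above all 3 parental ones, and replicate 1 was the lowest of the resistant libraries. The means were 8.44 ± 0.308 and 15.0 ± 1.54 CPM (SD, n = 3 each). The log2 fold change was 0.83 (SE 0.091, 95% interval 0.63 to 1.03), a fold of 1.78 (edgeR adjusted p = 1.70e-06). Among all genes tested, 36.0% had a larger log2 fold change in absolute size.

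BCL2L1 (ENSG00000171552.14, chr20:31664452-31723989, minus strand) encodes BCL-XL and, by alternative splicing, the shorter pro-apoptotic BCL-XS, which gene counts do not separate. It stood at 78.7, 78.1 and 78.9 CPM in parental cells and at 75.4, 71.6 and 71.0 CPM in LNCaP-enzaR. The parental libraries were almost level, with a coefficient of variation of 0.555%, and the resistant ones were slightly lower without overlap. The log2 fold change was -0.11 (SE 0.055, 95% interval -0.23 to 0.01), which did not pass the threshold (edgeR adjusted p = 0.0887). The interval does not reach the fold threshold of 1.5 in either direction. The edgeR adjusted p was 0.0275 with library totals in place of TMM and 0.00959 without LNCaP-enzaR replicate 1. The log2 fold changes there were -0.15 and -0.13, still without a call. Of the exonic bases of BCL2L1, 41.3% are shared with ABALON, a gene on the opposite strand, and the strand setting of the counting is not stated, so reads of the pair cannot be told apart.

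MCL1 (ENSG00000143384.14, chr1:150560895-150579738, minus strand), a short-lived survival protein that binds NOXA and BIM, was the most abundant of the 10 genes in both lines. It was measured at 265, 255 and 256 CPM in parental cells and at 218, 228 and 222 CPM in LNCaP-enzaR. The resistant libraries were all lower, by less than the fold threshold. The means of 258 ± 5.75 and 222 ± 4.76 CPM gave a log2 fold change of -0.22 (SE 0.050, 95% interval -0.32 to -0.11) and a fold change of 1.16, with an edgeR adjusted p = 0.00161 but no call. With upper-quartile scaling in place of TMM, the log2 fold change was -0.12 (edgeR adjusted p = 0.0569).

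Among the effectors, BAX (ENSG00000087088.20, chr19:48954815-48961798, plus strand), which moves from the cytosol to mitochondria during apoptosis, was measured at 57.2, 52.5 and 54.3 CPM in parental cells and at 35.1, 31.6 and 33.4 CPM in LNCaP-enzaR. The lines were well separated, with narrow spreads in both. The means were 54.6 ± 2.36 and 33.4 ± 1.72 CPM, a log2 fold change of -0.71 (SE 0.065, 95% interval -0.85 to -0.57) and a fold of 1.64 (edgeR adjusted p = 2.30e-07). The upper end of this interval lies just inside the fold threshold.

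BAK1 (ENSG00000030110.13, chr6:33572547-33580293, minus strand) encodes BAK, the effector that resides in the mitochondrial membrane. It stood at 31.9, 28.9 and 33.4 CPM in parental cells and at 24.8, 20.3 and 22.0 CPM in LNCaP-enzaR. All resistant libraries were below the parental ones. The log2 fold change of -0.49 (SE 0.083, 95% interval -0.67 to -0.31, edgeR adjusted p = 1.21e-04) corresponded to a fold of 1.40, under the minimum for a call. The intervals of BAX and BAK1 overlap, and the difference between these 2 genes was not tested.

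The BH3-only genes held the largest differences of the 10. BCL2L11 (ENSG00000153094.24, chr2:111119378-111168445, plus strand) encodes BIM, which binds every major anti-apoptotic member. It was measured at 36.2, 35.2 and 33.2 CPM in parental cells and at 14.8, 16.3 and 14.9 CPM in LNCaP-enzaR. Each resistant library was below the lowest parental one by a wide margin. The means were 34.8 and 15.3 CPM, with coefficients of variation of 4.29% and 5.59%, a log2 fold change of -1.18 (SE 0.071, 95% interval -1.34 to -1.03) and a fold of 2.27 (edgeR adjusted p = 2.46e-09). Of its exonic bases, 10.8% are shared with MIR4435-2HG.

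PMAIP1 (ENSG00000141682.12, chr18:59899996-59904305, plus strand) encodes NOXA, which binds MCL1 and promotes its degradation. It was measured at 25.4, 26.1 and 21.2 CPM in parental cells and at 8.83, 12.0 and 10.3 CPM in LNCaP-enzaR. The resistant libraries were again all lower, although this gene had the highest coefficient of variation of the 10 in LNCaP-enzaR, at 15.3%. The log2 fold change was -1.22 (SE 0.110, 95% interval -1.46 to -0.99), a fold of 2.34 (edgeR adjusted p = 1.95e-07). Its difference was the largest of the 10 in size, but its interval overlaps that of BCL2L11.

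BMF (ENSG00000104081.14, chr15:40087890-40108892, minus strand), a BH3-only protein that is held at the cytoskeleton until stress or loss of attachment, was measured at 18.0, 19.2 and 19.1 CPM in parental cells and at 10.3, 8.59 and 9.51 CPM in LNCaP-enzaR. The resistant libraries were all lower, with no overlap. The means of 18.8 ± 0.649 and 9.47 ± 0.849 CPM gave a log2 fold change of -0.99 (SE 0.084, 95% interval -1.17 to -0.81) and a fold of 1.98 (edgeR adjusted p = 1.10e-07). Of its exonic bases, 8.46% are shared with BMF-AS1.

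BID and BIK did not pass the threshold. BID (ENSG00000015475.19, chr22:17734138-17774770, minus strand), which caspase-8 cleaves to carry a death receptor signal to mitochondria, stood at 15.1, 18.8 and 17.0 CPM in parental cells and at 13.5, 10.3 and 12.6 CPM in LNCaP-enzaR. The lines did not overlap, but the closest libraries of the lines were near each other. Its log2 fold change was -0.48 (SE 0.106, 95% interval -0.71 to -0.25, edgeR adjusted p = 0.00107), a fold of 1.40. BIK (ENSG00000100290.3, chr22:43110750-43129712, plus strand), a BH3-only protein of the endoplasmic reticulum, was the only pro-apoptotic gene of the 10 with a higher level in LNCaP-enzaR, at 5.16, 5.66 and 5.79 CPM in parental cells and 7.57, 6.78 and 6.62 CPM in the resistant line. Its log2 fold change was 0.34 (SE 0.101, 95% interval 0.12 to 0.55, edgeR adjusted p = 0.00934), a fold of 1.26, and the interval lies below the fold threshold.

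**Figure D2:**
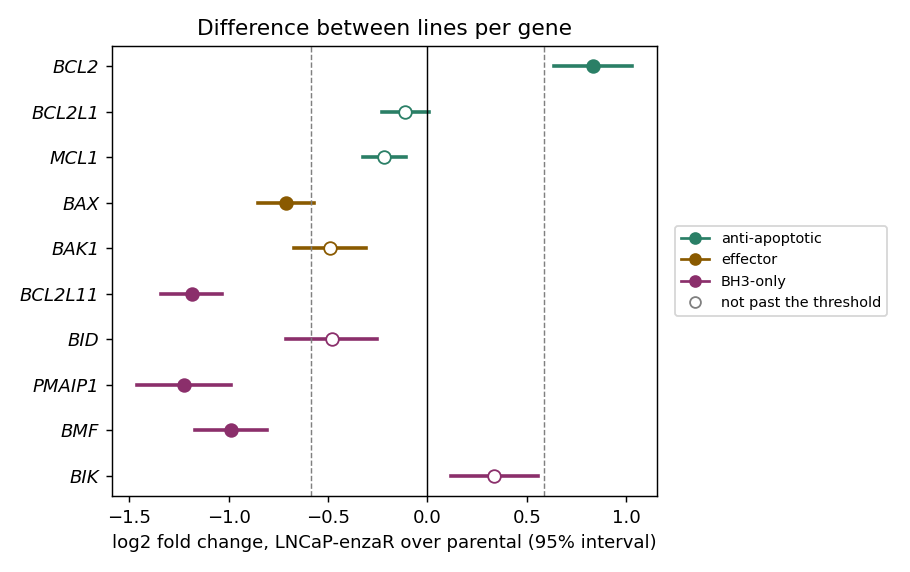
Log2 fold change of LNCaP-enzaR over parental (horizontal axis) for the 10 genes, with 95% intervals from edgeR; filled points passed the threshold, open points did not, colours give the role, and dashed lines mark a fold of 1.5. BCL2 at 0.83 is the only filled point to the right, while BAX (-0.71), BCL2L11 (-1.18), PMAIP1 (-1.22) and BMF (-0.99) are filled to the left.

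To compare levels between genes, CPM was divided by the length of exon per gene in kilobases (CPM per kb). MCL1 led in both lines, at 41.5 ± 0.925 CPM per kb in parental cells and 35.7 ± 0.765 in LNCaP-enzaR. In parental cells it was followed by BAX (21.1), BCL2L1 (18.7), BAK1 (14.2), PMAIP1 (11.1), BIK (5.82), BCL2L11 (5.17), BID (3.84) and BMF (3.45), with BCL2 last at 0.669 CPM per kb. Only BID and BMF, among neighbours in this order, overlapped in the range of their libraries. In LNCaP-enzaR the order was MCL1, BCL2L1 (17.3), BAX (12.9), BAK1 (10.1), BIK (7.35), PMAIP1 (4.74), BID (2.75), BCL2L11 (2.28), BMF (1.74) and BCL2 (1.19 CPM per kb), and BID and BCL2L11 overlapped. BCL2L1 and BAX thus changed places, as did BIK and PMAIP1. Although BCL2 rose, it remained the lowest of the 10 genes per kb in both lines. Exon length is the union of all annotated exons, so a gene such as BCL2, with a long exonic union of 12612 bases, may have a lower value per kb than its main transcript would.

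Summed per kb, the anti-apoptotic genes stood at 60.9 ± 0.957 CPM per kb in parental cells and 54.3 ± 0.565 in LNCaP-enzaR, and the pro-apoptotic genes at 64.7 ± 0.864 and 41.9 ± 1.81 CPM per kb. Both sums were lower in every resistant library, and the difference was larger for the pro-apoptotic sum. The effectors made up 35.3 ± 1.71 CPM per kb of the latter in parental cells and 23.0 ± 1.67 in LNCaP-enzaR, and the BH3-only genes 29.4 ± 1.44 and 18.9 ± 0.344. The ratio of the anti-apoptotic to the pro-apoptotic sum was 0.944, 0.937 and 0.944 in the parental libraries and 1.23, 1.36 and 1.30 in LNCaP-enzaR. The ratio was higher in each resistant library than in any parental one. Its side of 1 depended on the sums: with CPM sums, without division by length, the mean ratio was 1.85 in parental cells and 2.82 in LNCaP-enzaR, and without MCL1 it was 0.300 and 0.442 per kb. The log2 difference per kb was 0.46, and no p is given because the genes were chosen with results of these data known. The size depended on which genes were summed: with every family gene that passed the filter, which adds BCL2L2, BOK, BAD, BBC3 and HRK, the mean ratio was 0.792 in parental cells and 0.914 in LNCaP-enzaR, a log2 difference of 0.20.

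**Figure D3:**
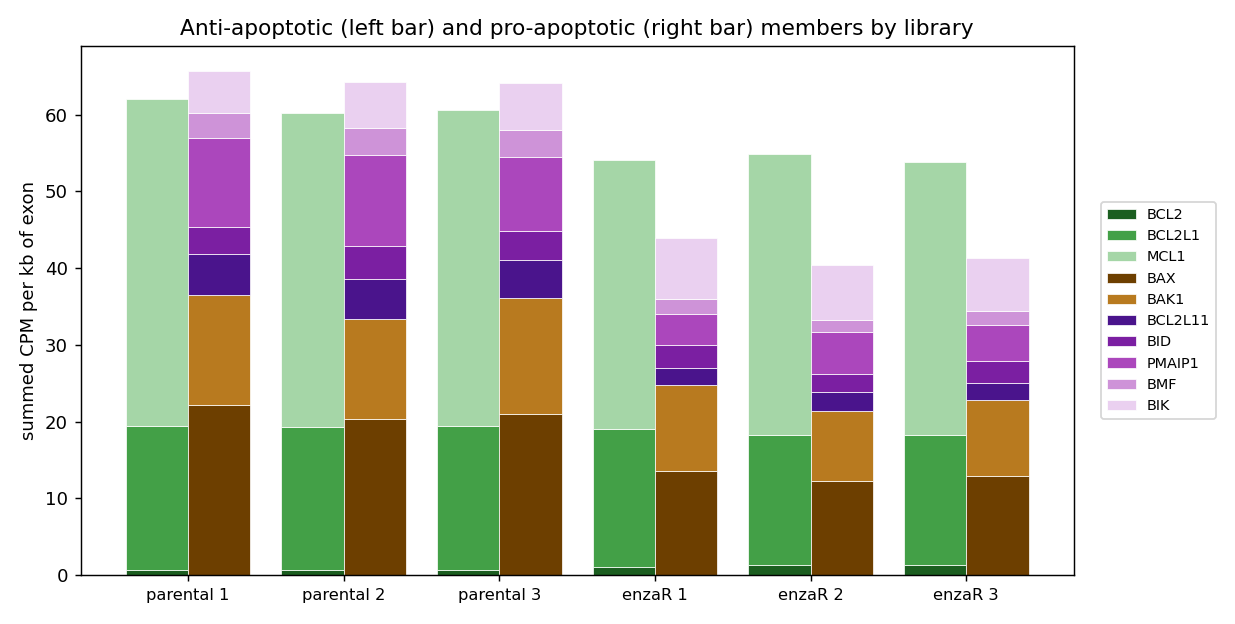
Summed CPM per kb of exon (vertical axis, linear from 0) of the 3 anti-apoptotic genes (left bar of each pair, greens) and the 7 pro-apoptotic genes (right bar, browns and purples) in each of the 6 libraries, stacked by gene. The right bar is taller in the 3 parental libraries (64.1 to 65.7 against 60.2 to 62.0) and shorter in the 3 LNCaP-enzaR libraries (40.4 to 43.9 against 53.8 to 54.9).

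The anti-apoptotic sum was mostly MCL1, which held 68.2% ± 0.453 of it in parental cells and 65.9% ± 0.942 in LNCaP-enzaR. BCL2 held 1.10% ± 0.0471 and 2.19% ± 0.222. Between binding partners, the ratio of BCL2 to BAX per kb was 0.0317 ± 0.00216 in parental cells and 0.0927 ± 0.0134 in LNCaP-enzaR. The ratio of BCL2 to BCL2L11 was 0.130 ± 0.00436 and 0.523 ± 0.0488, and that of MCL1 to PMAIP1 was 3.78 ± 0.420 and 7.64 ± 1.01. Each of the 3 ratios was higher in every resistant library than in any parental one. These are ratios of transcripts per length and not of proteins, and in bulk cultures fewer cells with a transcript and less of it per cell cannot be told apart.

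Genes within 1 Mb of each of the 10 genes, with a mean of at least 1 CPM, were compared as well. Over all genes tested, without this minimum, 23.3% were called higher and 19.5% lower. Around BCL2, 4 of 12 neighbours were higher and 0 lower, with a median log2 fold change of 0.27 against 0.83 for BCL2. Around BCL2L11, 0 of 8 were higher and 4 lower (median -0.60 against -1.18), and around PMAIP1, 0 of 4 were higher and 1 lower (median -0.51 against -1.22). For these 3 genes the median of the neighbours lay on the same side as the gene, by a smaller amount. Around BMF, 10 of 31 neighbours were higher and 11 lower (median 0.08), around BAX 9 of 54 were higher and 9 lower (median -0.01), and around BAK1 6 of 34 were higher and 6 lower (median 0.06). The neighbours of these 3 genes went both ways in like numbers. Around BID, 6 of 14 neighbours were higher and 0 lower, with a median of 0.44, opposite in sign to BID at -0.48. Around BIK, 9 of 22 were higher and 1 lower (median 0.29 beside 0.34 for BIK). Around BCL2L1, 1 of 11 was higher and 3 lower (median -0.11), and around MCL1 9 of 48 were higher and 8 lower (median -0.08). The median lay on the same side as the gene for BIK, BCL2L1, MCL1 and BAX as well, though close to 0 for MCL1 and BAX. Neighbours of MCL1, like those of BAX, went both ways in like numbers. Copy number was not measured, and its part in these differences was not tested.

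**Figure D4:**
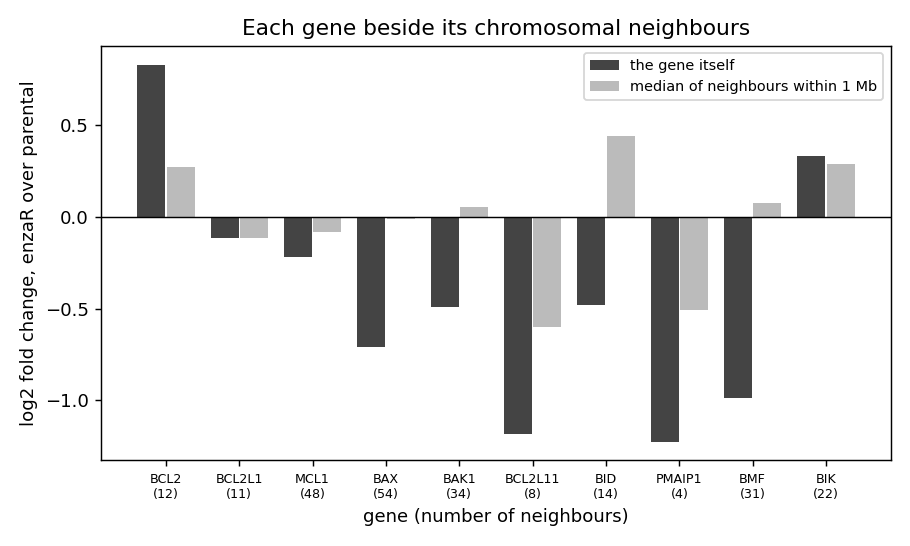
Log2 fold change of LNCaP-enzaR over parental for each of the 10 genes (dark bars) and the median over its expressed neighbours within 1 Mb (light bars), with the number of neighbours under each gene. The light bar follows the dark one for BCL2L11 (-0.60 beside -1.18), is near 0 for BAX (-0.01) and BMF (0.08), and is opposite for BID (0.44).

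The family holds further genes. Of 7 others listed, BCL2A1 and BCL2L10 did not pass the filter on low counts. Among the 5 tested, 1 was higher, against 23.3% of all genes tested, and none was lower, against 19.5%. The higher one was HRK, a BH3-only gene known from neurons, at 0.381 ± 0.147 CPM in parental cells and 0.961 ± 0.207 in LNCaP-enzaR (log2 fold change 1.33, SE 0.316, edgeR adjusted p = 0.00192), a low level in both lines with 23 to 106 counts per library. The pro-apoptotic BOK (22.6 and 31.1 CPM, log2 fold change 0.46, edgeR adjusted p = 1.44e-04) was under the fold threshold. So were BBC3, which encodes PUMA (5.66 and 7.69 CPM, 0.44, edgeR adjusted p = 0.00821), and the anti-apoptotic BCL2L2, which encodes BCL-W (43.3 and 54.5 CPM, 0.33, edgeR adjusted p = 3.04e-04). BAD (22.6 and 27.3 CPM, 0.27, edgeR adjusted p = 0.0513) was not called, and its libraries overlapped between the lines. The log2 fold changes of the pro-apoptotic HRK, BOK, BBC3 and BAD were thus all positive. The median of -0.71 over the 7 pro-apoptotic genes chosen above describes those genes and not the whole family. Without LNCaP-enzaR replicate 1, the log2 fold change was 0.13 for BAD and 0.29 for BBC3, and without parental replicate 1 it was 0.17 for BAD. Of 7 more distant relatives, 6 were tested, 1 was higher and 2 were lower (16.7% and 33.3%). BCL2L13, a mitochondrial protein that takes part in mitophagy, was higher at 182 against 116 CPM (log2 fold change 0.65, edgeR adjusted p = 3.72e-08), and BCL2L12 was lower at 11.6 against 31.0 CPM (log2 fold change -1.41, edgeR adjusted p = 2.23e-09). Of the exonic bases of BCL2L12, 25.9% are shared with IRF3. For BCL2L2 and BAD, 24.8% and 23.7% are shared with other genes.

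Downstream of the mitochondria, 1 of 11 apoptosome and caspase genes was higher (9.09%, against 23.3% of all genes tested). In the same list, 3 were lower (27.3%, against 19.5%). CASP9, the initiator caspase of the apoptosome, rose from 6.88 ± 0.836 to 15.0 ± 0.878 CPM (log2 fold change 1.12, SE 0.098, edgeR adjusted p = 1.47e-07). Those that fell include CYCS, the cytochrome c released by BAX and BAK (log2 fold change -0.68), and APAF1, the scaffold that binds it (-0.75), both named after their values were seen. Genes of the same arm thus moved in both directions.

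Of 7 inhibitors of apoptosis, 6 were tested, 1 was higher and 1 was lower (16.7% each, against 23.3% and 19.5% of all genes tested). BIRC5, which encodes survivin and is also a gene of dividing cells, fell from 191 ± 2.13 to 48.4 ± 1.28 CPM (log2 fold change -1.98, edgeR adjusted p = 8.36e-13). BIRC3, which encodes the ubiquitin ligase cIAP2, was higher at 1.45 against 0.664 CPM (log2 fold change 1.13, edgeR adjusted p = 2.46e-04). In the death receptor arm, 2 of 10 genes were higher and 4 lower (20% and 40%). TNFRSF10A, a receptor for TRAIL, fell from 30.1 ± 1.16 to 16.9 ± 0.565 CPM (log2 fold change -0.83, edgeR adjusted p = 7.36e-08), and CFLAR, which encodes the caspase-8 inhibitor FLIP, fell from 31.1 ± 1.09 to 18.1 ± 0.933 CPM (log2 fold change -0.79, edgeR adjusted p = 1.63e-07). Of exonic bases, 16.7% of TNFRSF10A and 12.1% of CFLAR are shared with other genes. CASP8, which cleaves BID, fell from 24.5 to 11.8 CPM (log2 fold change -1.05, edgeR adjusted p = 2.51e-07). The genes called higher were the death receptor FAS (log2 fold change 0.91, edgeR adjusted p = 1.48e-05) and the adaptor TRADD (0.60, edgeR adjusted p = 1.50e-05). The call of TRADD rested on single libraries, with a fold of 1.52 that was 1.47 without parental replicate 1 and 1.49 without LNCaP-enzaR replicate 1, under the threshold. CASP8, FAS and TRADD were named after their values were seen.

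Among 7 genes that turn over or anchor the family's proteins, 0 were higher and 1 was lower. It was FBXW7, the substrate receptor of a ubiquitin ligase that marks MCL1 for degradation, which fell from 18.5 ± 1.06 to 10.3 ± 0.193 CPM (log2 fold change -0.84, edgeR adjusted p = 2.40e-07). Of 12 transcription factors known to regulate the 10 genes, 2 were higher and 2 were lower. CREB1, an activator of BCL2, fell from 83.3 ± 2.33 to 34.1 ± 3.54 CPM (log2 fold change -1.29, edgeR adjusted p = 1.61e-09), and E2F1, which activates several BH3-only genes, fell from 104 ± 4.03 to 44.7 ± 4.62 CPM (log2 fold change -1.22, edgeR adjusted p = 2.64e-09). Those called higher were FOXO4 (log2 fold change 0.95, edgeR adjusted p = 5.27e-07) and DDIT3, which encodes CHOP (0.66, edgeR adjusted p = 1.69e-05). Of the exonic bases of DDIT3, 39.6% are shared with other genes. FOXO3 (log2 fold change 0.50) and ATF4 (-0.55), known activators of BCL2L11 and PMAIP1, had edgeR adjusted p-values of 4.19e-06 and 1.21e-06 but folds of 1.41 and 1.46, under the threshold. These 4 factors and FOXO1 (log2 fold change 0.02, not called) were named after their values were seen. Of the factors whose motifs were searched, ATF4 and CHOP thus had values of opposite sign. The values of FOXO3 and FOXO4 were positive and that of CREB1 was negative. Over these 7 lists together, 8 of 57 genes tested were higher (14.0%, against 23.3% of all genes) and 13 were lower (22.8%, against 19.5%), with a median log2 fold change of -0.12.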

How the data were processed

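Polyadenylated RNA of 3 parental and 3 LNCaP-enzaR flasks was sequenced as paired-end reads of 150 bp. The authors trimmed reads with Cutadapt, aligned them to GRCh38.p13 with STAR and GENCODE v38, and obtained gene counts with featureCounts. Counts were deposited without normalization; the strand setting and the treatment of multimapping reads are not given in the sources used here. Groups and replicate numbers were read from the sample titles. Coordinates are those of the table, and strand, exon length and shared exonic bases come from GENCODE v44, in which 99.8% of the genes were found by identifier.

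Genes were filtered with filterByExpr, scaled by TMM and tested with the robust quasi-likelihood F-test of edgeR 4.0.16 in R 4.3.3, without covariates. The threshold (adjusted p of at most 0.05, fold of at least 1.5) follows the study's methods, which name DESeq2; version 1.42.0 was run as an alternative. Log2 fold changes are LNCaP-enzaR over parental, with intervals from the t distribution of the fit. Promoter sequences are from RefSeq, and motifs were searched in the 250 bases before each start.

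The 10 genes, the lists and the motifs were chosen with earlier results of these data known. Outside the 10, the text names every tested gene of the near family and, in each further list, the 2 genes past the threshold with the smallest p; others are said to be named after their values were seen. A further gene that the rule names is not reported here.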

Additional observations from a re-analysis of the deposited data

How the results depend on the processing

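The 10 genes and the 16 other genes chosen by rule (1 of them not reported here) kept their direction and their side of the threshold under all 15 alternatives: DESeq2, 3 other scalings, 2 other filters, protein-coding genes only, no mitochondrial genes, the replicate block and each of the 6 libraries left out. Under these, log2 fold changes ranged from 0.79 to 0.93 for BCL2, from -0.75 to -0.61 for BAX, from -1.23 to -1.08 for BCL2L11, from -1.34 to -1.12 for PMAIP1 and from -1.04 to -0.89 for BMF. Counts depended on the fold threshold. With the adjusted p alone, 2 of the 10 genes were higher and 7 lower, and 18 and 28 of the 57 other apoptosis genes tested. The shares of all genes tested were 33.5% and 32.8%. With a fold of at least 2, the counts were 0 and 2 of the 10, and 3 and 7 of the 57 others. Of all genes tested, 16.4% and 11.8% passed that threshold. Some list counts moved elsewhere. Death receptor genes called higher were 1 in place of 2 with library totals and without replicate 1 of either line. Distant relatives called lower were 1 in place of 2 under a minimum of 10 counts per library. In the list of apoptosome and caspase genes, those called higher were 2 in place of 1 with upper-quartile scaling. The log2 difference of the summed ratio was 0.61 with CPM sums, 0.56 without MCL1 and 0.20 with every tested family gene. Upper-quartile scaling shifted all genes by a median of 0.10 and raised the share of higher calls from 54.5% to 60.9%. Over the genes tested, LNCaP-enzaR replicate 1 differed most within its line, at a chi-square per degree of freedom of 39.1 and 31.2. Replicates 2 and 3 of that line stood at 7.33, and pairs of parental libraries at 5.7 to 9.48. Without LNCaP-enzaR replicate 1, the log2 fold change of BCL2 was 0.92. Deviations of same-numbered replicates correlated at -0.0652 to -0.00041 between the lines, so the numbers were not taken to pair samples; with the replicate block, 1 of the 10 genes was higher and 4 were lower, BCL2 had a log2 fold change of 0.83, and 8212 genes were called against 8425. BCL2 had the lowest level per length and BIK the lowest counts, and both remained well above the floor of 3 counts.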
